A study of Enchytraeus crypticus with 54 samples.

Results

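Expression was compared between worms kept for 3 days in field soil with an old copper contamination (Cu-Field) and worms kept for 3 days in soil dosed with copper nanowires (Cu-NWires). The 12 arrays of these groups, 6 for each form, were chosen by the sample labels from the 54 arrays of a study of 4 copper forms in the potworm *Enchytraeus crypticus*. The other forms were copper nitrate (CuNO3) and copper nanoparticles (Cu-NPs). Each form was given at its EC20 and its EC50, the concentrations that lower reproduction by 20% and 50%, and worms were sampled after 3 and 7 days.

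All groups held adult worms with a developed clitellum in soil from the Hygum site, and each array measured whole bodies of 20 worms pooled. Cu-Field EC20, Cu-Field EC50, Cu-NWires EC20 and Cu-NWires EC50 had 3 arrays each at 3 days. The control soil came from an uncontaminated area of the same site, with 3 arrays at 3 days and 3 at 7 days. The levels were matched by their effect on reproduction, not by copper content, so the form, the amount of copper and the history of the soil cannot be told apart. In whole-body RNA, a smaller share of one cell type and less RNA per cell cannot be told apart.

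Enchytraeids are small soil-dwelling relatives of earthworms that take up metals through the skin and with swallowed soil. Copper is a cofactor of respiratory and antioxidant enzymes and is toxic in excess, when animals bind it with metallothioneins and chaperones and export it with ATPases. In a soil aged in the field much of the copper is bound to organic matter and clay, whereas metal nanowires release copper ions as they corrode.

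The array had 43750 non-control probes, and 19499 of them (44.6%) gave a positive and significant signal on every one of the 54 arrays and were tested. The processed signals were taken to log2 and each array was set to a common median, so a value below is a log2 signal and a difference of 1 is a 2-fold difference. The probes carry the names of assembled contigs or of single sequencing reads, with no gene names, so metal-handling and stress genes could not be picked out and the tissue could not be checked against markers. No spot of a non-control probe was saturated. Per array, 45.0 to 64.9% of the non-control probes were well above background among the 12 arrays.

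The array labelled Cu-NWires EC50 replicate 2 lay nearer to the Cu-Field arrays than to the other nanowire arrays. Distance between arrays was taken as the root mean square of the log2 differences over the 19499 probes. The closest of all other arrays to this one was Cu-Field EC50 replicate 2, at a distance of 0.429. Its mean distance to the 6 Cu-Field arrays was 0.563, against 0.715 to the 5 other Cu-NWires arrays. The form was not a strong divide for the arrays as a whole. The mean distance was 0.634 between Cu-Field arrays, 0.761 between Cu-NWires arrays, more than the 0.715 of this array, and 0.737 between an array of one form and an array of the other. Of the 6 Cu-Field arrays 5 lay nearer on average to their own form, and of the 6 Cu-NWires arrays 2 did. Of all 54 arrays, 12 had an array of their own group as the nearest. Results are therefore given with this array and without it, a choice made after its values had been seen. The label was kept as given, and whether it is right was not tested, so values that rest on this array depend on its label.

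**Figure D1:**
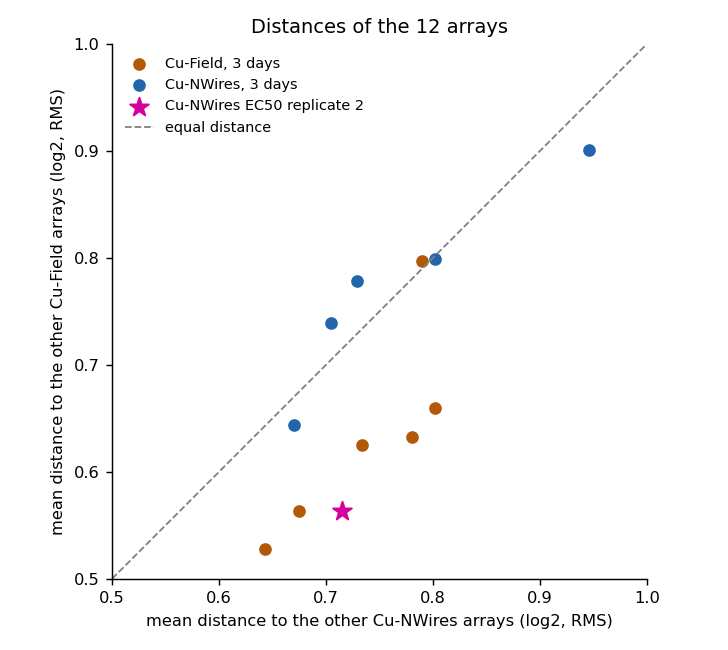
Mean distance of each of the 12 arrays at 3 days to the other Cu-Field arrays (vertical axis) and to the other Cu-NWires arrays (horizontal axis), as root mean square log2 difference over 19499 probes. The dashed line marks equal distance, and the star, Cu-NWires EC50 replicate 2, lies at 0.715 and 0.563 among the Cu-Field arrays.

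The slides of the array platform were not spread evenly over the forms. The 12 arrays lay on 8 slides, and 0 of these held both forms at 3 days, so no difference within a slide could be taken. A single slide held 4 of the 6 Cu-Field arrays. Of the 2 scan days, the second held 5 Cu-Field and 4 Cu-NWires arrays, and the first held 1 Cu-Field array at EC50 and 2 Cu-NWires arrays at EC20.

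Few probes separated field soil from nanowires at 3 days on the common-median scale. The count was far higher on some other scales, given below. With effect level as a block, limma called 8 of 19499 probes (0.0410%) at an adjusted p under 0.05, 6 of them higher (0.0308%) and 2 lower (0.0103%) in Cu-Field. At an unadjusted p under 0.05 there were 2435 probes, or 12.5%. The median absolute difference over all probes was 0.245, and 1.34% of the probes differed by more than 1. The precision was moderate, with a median half-width of the 95% interval of 0.533. On the common-median scale, the whole interval lay within 1 of 0 for 71.5% of the probes. For these a difference of 2-fold or more was outside it. For the other 28.5% such a difference lay within it, and for 36.8% without Cu-NWires EC50 replicate 2. The intervals do not cover the choice of scale.

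**Figure D2:**
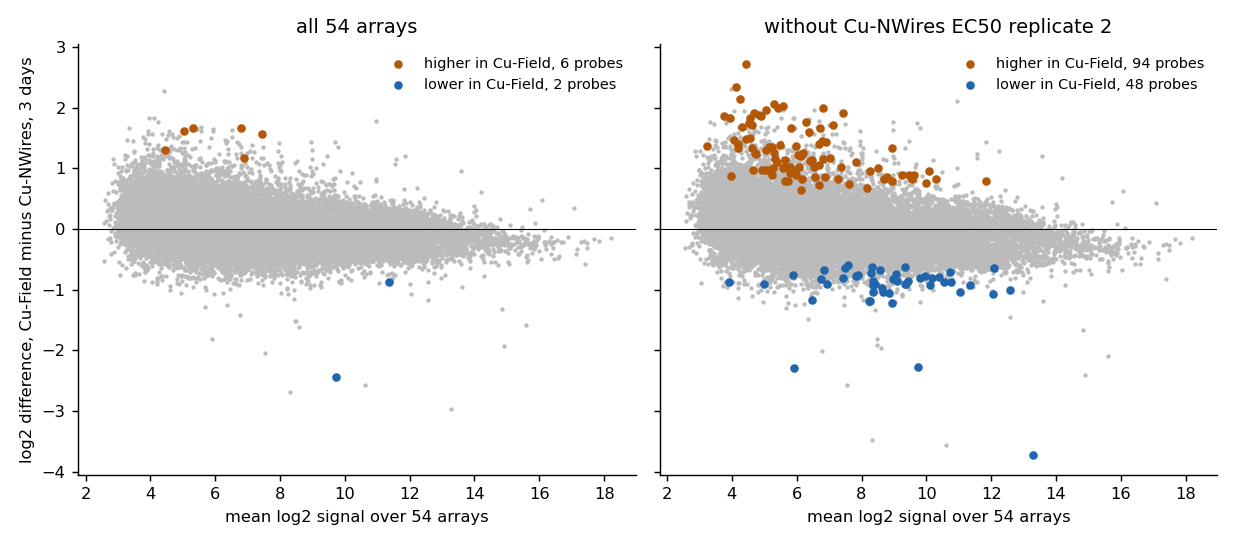
Log2 difference between Cu-Field and Cu-NWires at 3 days (vertical axis) against the mean log2 signal over 54 arrays (horizontal axis), 1 point per probe. Probes with an adjusted p under 0.05 are coloured, 6 higher and 2 lower with all arrays (left) and 94 higher and 48 lower without Cu-NWires EC50 replicate 2 (right).

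Without Cu-NWires EC50 replicate 2, 142 probes were called (0.728%), 94 higher (0.482%) and 48 lower (0.246%) in Cu-Field, and the 8 probes were all among them. At an unadjusted p under 0.05 there were then 3326. At the 94 higher probes this array lay nearer to the Cu-Field mean than to the mean of the other 5 nanowire arrays in 91 cases, and at the 48 lower probes in 43. Since those probes were selected with the array left out, its position on them is a description of that array. Its weight in the comparison was thus large, while leaving out other single arrays gave between 0 and 8 probes, with 0 without Cu-NWires EC50 replicate 3, 2 without Cu-NWires EC50 replicate 1, 4 without Cu-Field EC20 replicate 3 or without Cu-Field EC50 replicate 2, and 5 without Cu-Field EC20 replicate 1 or without Cu-NWires EC20 replicate 1.

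The number of probes called and the split by direction depended on how the arrays were put on one scale. SVCD is a normalization that first scales the arrays within each condition. It then scales the conditions on genes found to have no variation between them. SVCD shifted the median difference of all probes by -0.18 and called 1370 probes, 46 higher and 1324 lower in Cu-Field. Scaling on the spiked-in control RNA shifted it by 0.66 and called 952 higher and 0 lower. The 8 probes kept their direction under the median, SVCD, quantile and spike-in scalings, and 6 or more of them were called under each. With slide as a fixed block 0 probes were called (629 at an unadjusted p under 0.05). The 8 probes kept their direction in that fit, with differences of 0.04 to 2.75 for the higher and of -2.86 and -0.94 for the lower probes. With slide as a random block, added after the data were seen, 6 were called. With scan day as a block 7 were called, 5 higher and 2 lower. Within the second scan day alone 0 were called (1396 unadjusted), with all 8 probes in the same direction. How far the slides contribute to the difference was not tested beyond these fits.

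Among the 6 probes higher in Cu-Field, those with the largest difference were CUST_49709 (read GYUW2K402GMYHQ) and CUST_15345 (contig15530). They were picked after their values were seen, because 0 of the 6 higher probes had forms that did not overlap. For CUST_49709 the lowest, median and highest log2 signals were 8.35, 8.38 and 8.60 on the 6 Cu-Field arrays and 5.99, 6.47 and 8.62 on the 6 Cu-NWires arrays. All Cu-Field arrays lay close together, and the nanowire arrays lay clearly below them except for EC50 replicate 2, which was the highest of all. The difference was 1.66 ± 0.27 (SE, limma adjusted p = 0.00448), a 3.15-fold higher signal in Cu-Field. Without that array it was 2.00, or 4.01-fold (adjusted p = 3.08e-06). The SE and p given for the 4 named probes use the spread within all 18 groups. In a limma fit of the 12 arrays alone, their adjusted p was 0.223 to 0.245.

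CUST_15345 had log2 signals of 6.22, 6.59 and 6.99 (lowest, median, highest) in Cu-Field and of 3.82, 4.72 and 6.80 in Cu-NWires. Again the nanowire array inside the Cu-Field range was EC50 replicate 2, and the next highest nanowire value was 5.43. The difference was 1.66 ± 0.31 (SE, limma adjusted p = 0.0178), and 2.07 without that array (adjusted p = 2.02e-05). The remaining 4 higher probes differed by 1.18 to 1.62. At all 6 higher probes EC50 replicate 2 lay above the lowest Cu-Field value, and without it the forms did not overlap at 5 of the 6. Over all probes tested, 4.12% had forms that did not overlap on those 11 arrays, and the 6 were selected for a high Cu-Field signal on the same arrays.

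The 2 lower probes were CUST_9347 (contig20866) and CUST_50327 (read GYUW2K401EBVTP), and both were well above background on all 12 arrays with forms that did not overlap. Among all probes tested 132, or 0.677%, had such separated forms. For CUST_9347, an abundant transcript whose mean signal ranked at the 91.1 percentile, the lowest, median and highest values were 10.16, 10.89 and 11.16 in Cu-Field and 11.35, 11.60 and 11.94 in Cu-NWires. The highest field array thus lay just below the lowest nanowire array. The difference was -0.88 ± 0.15 (SE, limma adjusted p = 0.00448), or 1.84-fold.

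CUST_50327 gave 7.97, 9.14 and 10.53 in Cu-Field and 11.19, 11.55 and 12.48 in Cu-NWires. The field values were spread widely and the nanowire values stood above every one of them, with EC50 replicate 2 the highest. The difference was -2.44 ± 0.49 (SE, limma adjusted p = 0.0319), or 5.41-fold. It passed the threshold in 8 of 23 alternative settings, and on the spike-in scale the difference of CUST_9347 was -0.22 (adjusted p = 0.658).

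**Figure D3:**
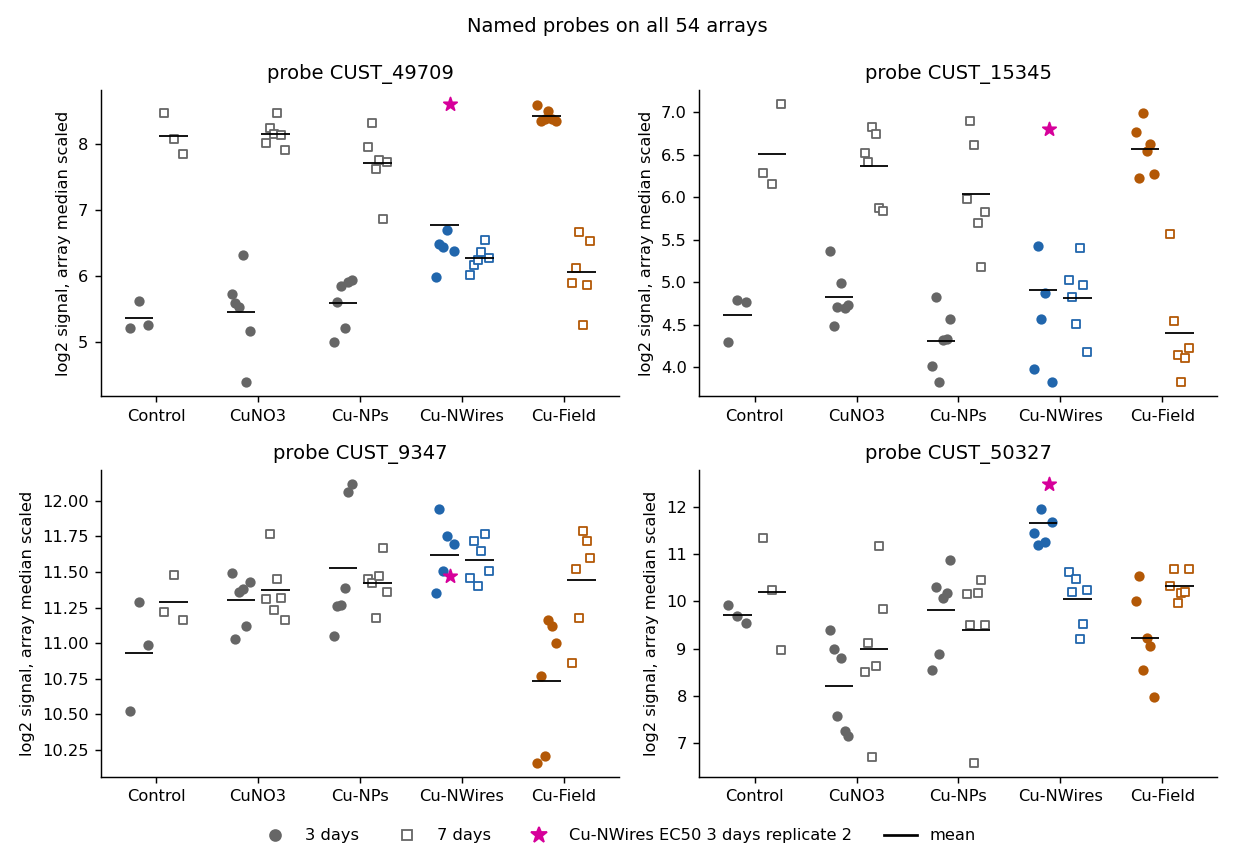
Log2 signal of the 4 named probes on all 54 arrays, by copper form (horizontal axis) and day (filled circles 3 days, open squares 7 days), with the mean of each set as a line. The star is Cu-NWires EC50 replicate 2 at 3 days, at 8.62 for CUST_49709, just above the Cu-Field values of 8.35 to 8.60.

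Both forms were then set beside the control arrays at 3 days. Both of these comparisons use the same 3 control arrays and share the arrays of the comparison above. For CUST_49709 the control values at 3 days were 5.20, 5.62 and 5.26. Cu-Field was higher than control by 3.07 (adjusted p = 3.87e-07) and Cu-NWires by 1.41 (adjusted p = 0.00433), or by 1.06 without EC50 replicate 2 (adjusted p = 0.011). For CUST_15345 the control values were 4.29, 4.79 and 4.76, the Cu-Field difference was 1.96 (adjusted p = 0.00284), and the Cu-NWires difference was 0.30 (adjusted p = 0.576). Of the 4 higher probes not named, 2 differed from control by 0.36 (adjusted p = 0.515) and 0.69 (adjusted p = 0.221) in Cu-Field. In Cu-NWires they differed by -0.95 (adjusted p = 0.0366) and -0.93 (adjusted p = 0.0533). On the common-median scale the departure from control was thus not always on the Cu-Field side. At the 2 lower probes the Cu-NWires arrays departed from control on that scale. CUST_9347 was higher than control by 0.69 in Cu-NWires (adjusted p = 0.00947) and differed by -0.19 in Cu-Field (adjusted p = 0.534). CUST_50327 was higher by 1.94 in Cu-NWires (adjusted p = 0.0206) and differed by -0.49 in Cu-Field (adjusted p = 0.639). Which form departs from control can depend on the scale. Against control, the median difference of all probes was -0.104 in Cu-Field and -0.119 in Cu-NWires on the common-median scale. It was 0.549 and 0.71 with SVCD, and 1.53 and 0.852 on the spike-in scale. Each of these shifts is shared by all probes. Single probes are set against control on the common-median scale only.

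Over all probes, 1183 (6.07%) differed between Cu-Field and control at 3 days, 466 higher and 717 lower. Between Cu-NWires and control 3997 (20.5%) differed, 1717 higher and 2280 lower. The split by direction depended on the scaling here too. For Cu-Field and control, SVCD called 6840 higher and 143 lower, and the spike-in scale called 14678 higher and 17 lower. For Cu-NWires and control they called 9499 higher and 206 lower, and 4031 higher and 67 lower. Both counts moved with the control arrays. Without control replicate 3 they were 178 and 1621, and without control replicate 1 they were 281 and 1490. The difference between the 2 counts does not itself show that the forms differ, and the direct comparison above is the test of that.

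Some of the higher probes also changed with the day of sampling. In control worms CUST_49709 was at 7.85 to 8.47 at 7 days against 5.20 to 5.62 at 3 days, a rise of 2.77 (adjusted p = 0.000156, with 1.84% of all probes called higher). With CuNO3 and Cu-NPs it ran from 4.38 to 6.31 on the 12 arrays at 3 days and from 6.87 to 8.47 on the 12 at 7 days. Those days did not overlap. In Cu-Field the order of the days was the opposite, with 8.35 to 8.60 at 3 days and 5.25 to 6.66 at 7 days, a change of -2.37 (adjusted p = 1.61e-06). The Cu-Field values at 3 days thus overlapped those of control worms at 7 days, and the Cu-Field values at 7 days all lay below the latter.

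CUST_15345 followed the same course. Its control values were 4.29 to 4.79 at 3 days and 6.15 to 7.10 at 7 days (a rise of 1.90, adjusted p = 0.0148). Its Cu-Field values were 6.22 to 6.99 at 3 days and 3.82 to 5.57 at 7 days (a change of -2.17). In Cu-NWires at 7 days it gave 4.18 to 5.40, within the span of the other 5 nanowire arrays at 3 days. Of the 6 higher probes, 4 rose from 3 to 7 days in control worms, 5 with CuNO3 (6.69% of all probes rose) and 4 with Cu-NPs (1.63%), while all 6 fell in Cu-Field (3.76%) and 0 changed in Cu-NWires, where 0 of all probes did. The fall in Cu-Field is no independent result, because its arrays at 3 days had selected the 6 for a high signal. The 2 that did not pass in control worms changed there by 0.55 (adjusted p = 0.446) and -0.12 (adjusted p = 0.885). Whether the 6 probes stand for separate transcripts was not tested. Changes from 3 to 7 days within control worms or a form were fitted on the common-median scale only.

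The probes called without Cu-NWires EC50 replicate 2 formed a broader list. This list was formed after the values were seen and is described here without a test. The median log2 signal was 5.87 for the 94 higher and 8.74 for the 48 lower probes, against 6.44 for all probes. The part of signal strength in these lists was not tested. For the 94 probes higher in Cu-Field, the median change from 3 to 7 days was 0.43 in control worms, 0.76 with CuNO3 and 0.73 with Cu-NPs, against -0.07, -0.14 and -0.11 for all probes. None of these arrays belonged to the forms compared. Of the 94, 26 (27.7%) rose in control worms, 49 (52.1%) with CuNO3 and 40 (42.6%) with Cu-NPs, where 1.77%, 6.53% and 1.67% of all probes rose in the same fits. In Cu-Field, whose arrays at 3 days had selected the list, the median change was -1.20. On the common-median scale, the median difference of the 94 from control at 3 days was 0.55 in Cu-Field, with 29 (30.9%) higher. It was -0.51 in Cu-NWires, with 32 of the 94 lower. Of all probes 2.32% and 11.1% were called in these directions. In Cu-NPs at the EC50 the median was -0.70 and 38 (40.4%) were lower than control, against 6.78% of all probes. The control arrays are shared by these comparisons, and the Cu-Field and Cu-NWires arrays had selected the list. The sign of such a difference from control can change with the scale, through the shifts of all probes given above.

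**Figure D4:**
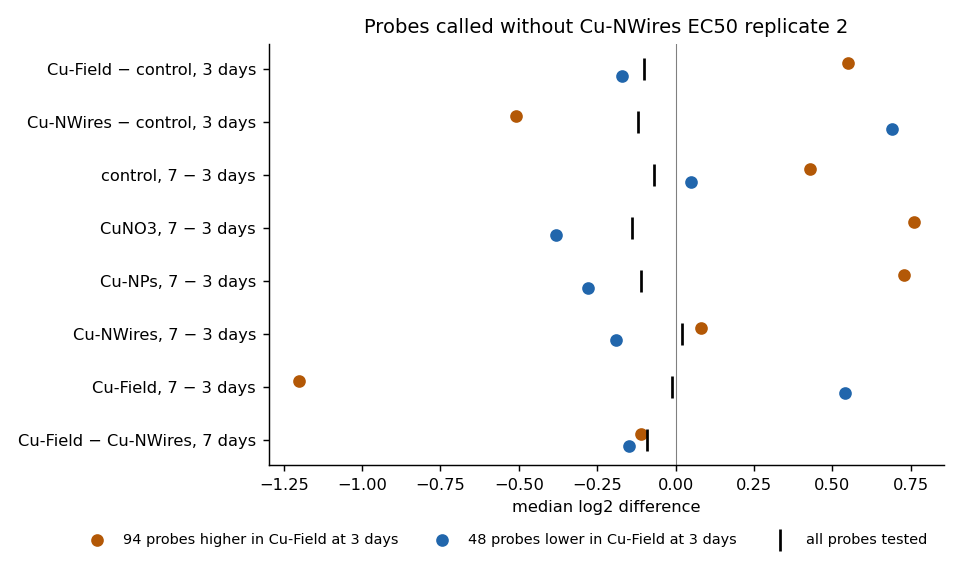
Median log2 difference (horizontal axis) of the 94 probes higher and the 48 lower in Cu-Field at 3 days, called without Cu-NWires EC50 replicate 2, in 8 comparisons (vertical axis), with the median of all tested probes as a bar. For the 94 probes the median change with time was 0.43 in control, 0.76 in CuNO3 and 0.73 in Cu-NPs worms and -1.20 in Cu-Field worms. All values are on the common-median scale.

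The reversed day order was not a feature of the Cu-Field arrays as a whole. Across 19499 probes the change from 3 to 7 days in Cu-Field correlated with that in control worms at r = 0.475, compared with 0.647 for CuNO3, 0.596 for Cu-NPs and -0.0163 for Cu-NWires. These are descriptions across probes, which are not independent, and the same control arrays enter all of them. From 3 to 7 days 1023 probes changed in Cu-Field (5.25%), 609 in control worms (3.12%) and 0 in Cu-NWires, where 664 (3.41%) had an unadjusted p under 0.05.

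For the 48 lower probes the median difference from control at 3 days was 0.69 for Cu-NWires, with 29 of 48 called higher (60.4%, against 9.17% of all probes), and -0.17 for Cu-Field. In Cu-NPs at the EC50, whose arrays are not among those compared, the median was 0.92 and 36 of the 48 (75.0%) were higher than control, where 11.2% of all probes were. The control arrays are shared here as well, and the differences from control again rest on the common-median scale. From 3 to 7 days the median change of the 48 in control worms was 0.05, and 0 of them were called, where 1.77% of all probes rose and 1.22% fell. With CuNO3 19 of the 48 (39.6%) fell, against 15.0% of all probes, and with Cu-NPs 1 (2.08%) fell, against 1.09%. In Cu-Field, whose arrays at 3 days had selected them for a low signal, 17 (35.4%) rose, against 1.55%.

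Both effect levels were then taken apart. At the EC20 8 probes were called (0.0410%), 7 higher and 1 lower, and 5 of the 8 probes of the pooled comparison were called. At the EC50 0 were called, with 1601 (8.21%) at an unadjusted p under 0.05. Without Cu-NWires EC50 replicate 2, 4 (0.0205%) were called at the EC50, all higher in Cu-Field, and 3 of these belonged to the 8. CUST_49709 differed by 2.14 at the EC20 and by 1.18 at the EC50 (1.87 without that array). CUST_50327 differed by -1.83 and -3.05.

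The form difference was not shown to depend on the effect level. The interaction of form and level gave 0 calls and 888 probes at an unadjusted p under 0.05 (4.55%), and 0 calls also without the array. The differences at the 2 levels come from separate arrays, and across probes they correlated at r = 0.188, or 0.333 without the array. By the count of probes called, the level itself separated the 12 arrays even less than the form. The 2 counts are not alike in their slides. No slide held both forms, but the slide with 4 Cu-Field arrays held both levels. Between EC50 and EC20, 1 probe was called (0.00513%) and 509 had an unadjusted p under 0.05. This was CUST_6960 (contig22906), higher at the EC50 by 1.60 (adjusted p = 0.0199), named after its value was seen, and it was not called without Cu-NWires EC50 replicate 2, when 0 were.

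Set beside the other pairs of forms at 3 days on the common-median scale, the field and nanowire forms were close, but not the closest. Cu-NPs and CuNO3 differed at 5 probes with a median absolute difference of 0.199, against 8 and 0.245 for Cu-Field and Cu-NWires. The remaining pairs differed at 1800 (Cu-NWires and Cu-NPs), 3582 (Cu-Field and Cu-NPs), 5098 (Cu-Field and CuNO3) and 5814 probes (Cu-NWires and CuNO3). These pairs share arrays and their order was not tested. The lowest count changed place with the processing. Cu-Field and Cu-NWires had 7 against 8 for Cu-NPs and CuNO3 after quantile normalization, and 1370 against 10 after SVCD. On the spike-in scale Cu-Field and Cu-NWires had 952, against 12 for Cu-NWires and Cu-NPs and 0 for Cu-NPs and CuNO3.

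At 7 days the same comparison in 12 other arrays gave 2 probes (0.0103%), with 2522 at an unadjusted p under 0.05. CUST_15773 (contig03469) was higher in Cu-Field, at 10.14 to 12.20 against 8.09 to 10.50, and the forms overlapped. CUST_10736 (contig19661) was lower, at 3.19 to 5.76 against 4.73 to 6.94. Their differences were 2.06 and -1.58, each with an adjusted p of 0.0499 by limma, and both were named after their values were seen. With the 3-day array Cu-NWires EC50 replicate 2 left out, which changes only the estimate of the spread here, 0 probes were called. Leaving out each of the 12 arrays at 7 days in turn gave 0 to 34, the latter without Cu-NWires EC50 replicate 3.

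The 8 probes of the 3-day comparison did not pass the test at 7 days. Their differences there ran from -0.42 to 0.06 for the 6 higher probes, and were -0.14 for CUST_9347 and 0.29 for CUST_50327. The change of the form difference between days was called for 0 probes (1854 unadjusted, 9.51%). Without Cu-NWires EC50 replicate 2 it was called for 15 (0.0769%), all with a lower Cu-Field minus Cu-NWires difference at 7 days than at 3 days. After SVCD, with all arrays, 2585 were called, 2572 of them with a higher and 13 with a lower difference at 7 days. The 15 included 5 of the 6 higher probes, which had been selected by the 3-day difference that this contrast subtracts, so their direction is largely set by the selection. For CUST_49709 that change was -2.22 (adjusted p = 0.000706). Across all probes the differences at 3 and 7 days correlated at r = 0.049.

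Beyond the tested probes, detection was broader in field soil. Of the non-control probes 75.1 to 86.5% had a positive and significant signal on the Cu-Field arrays, with a mean of 79.5 ± 4.19% (SD, n = 6), and 66.4 to 76.7% on the Cu-NWires arrays, with a mean of 71.9 ± 3.42% (SD, n = 6). The ranges overlapped only through Cu-NWires EC50 replicate 2, at 76.7%, and the next nanowire array had 73.4%. The difference of 7.57 points had an exact permutation p of 0.01, two-sided, with the forms permuted within each level (smallest possible p 0.005, and 0.02 after adjustment over the 4 array measures compared). The permutation takes no account of slides, of which 0 held both forms and 1 held 4 of the 6 Cu-Field arrays. Control arrays at 3 days spanned 65.0 to 84.1% and so covered most of both forms.

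**Figure D5:**
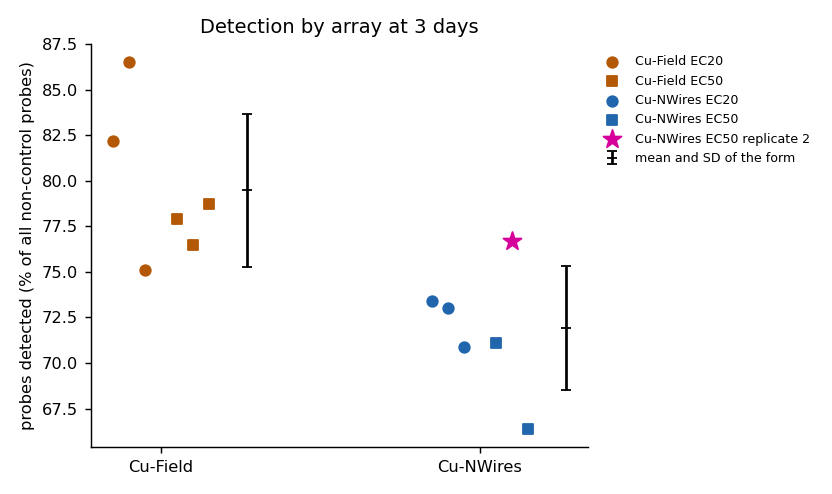
Share of non-control probes with a positive and significant signal on each of the 12 arrays (vertical axis, percent), by form (horizontal axis) and effect level (circles EC20, squares EC50), with the mean and SD of each form. Cu-Field spans 75.1 to 86.5%, and only the starred Cu-NWires EC50 replicate 2, at 76.7%, reaches into that range.

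The median processed signal moved in the same direction, at 12.7 to 17.5 units in Cu-Field and 9.72 to 13.5 in Cu-NWires (exact permutation p = 0.025, adjusted 0.0333, n = 6 per form). The spiked-in control RNA had a mean log2 signal of 13.1 ± 0.24 in Cu-Field and 13.6 ± 0.602 in Cu-NWires (SD, exact permutation p = 0.09, n = 6 per form). The part of overall signal strength in the detection difference was not tested.

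On all 6 Cu-Field arrays and on none of the 6 Cu-NWires arrays, 25 of 43750 probes were detected, and 0 showed the reverse. The same split by effect level gave 1 probe at the EC20 and 0 at the EC50. These probes were dim, with a median over probes of 4.73 units in Cu-Field, 2.48 in Cu-NWires and 4.08 in control worms at 3 days. At 3 days 16 of the 25 were detected on 3 or more of the 6 CuNO3 arrays, and 15 on those of Cu-NPs. At 7 days 11 of the 25 were detected on 3 or more of the 6 Cu-Field arrays, and likewise 11 on those of Cu-NWires. Without Cu-NWires EC50 replicate 2 there were 66 probes detected with one form only. Leaving out an array cannot lower this count, and over the 12 arrays it gave 28 to 66.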

How the data were processed

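Groups, effect levels, days and replicate numbers were taken from the sample labels, for 18 groups of 3 arrays. The series description calls the replicates biological. Values came from the processed-signal column of each scanner file, which holds intensity values on a linear scale as the authors deposited them. Per the file headers, Agilent Feature Extraction 10.7.3.1 had subtracted the background, with arrays not yet scaled to each other. The table of values of the whole series was not used. The tables held 0 columns of samples from outside the series.

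Probes were kept when flagged positive and significant on all 54 arrays. Their log2 values, computed here from the deposited signals, were set to a common median per array. A mean per group was fitted over all arrays with limma 3.58.1 in R 4.3.3 (36 residual degrees of freedom, 40 with the prior), and p-values were adjusted by Benjamini-Hochberg over the 19499 probes at a threshold of 0.05. The median of the spots was used with normexp (offset 50), since the files held no mean signal. Of the 10 E1A spike-in probes, 7 passed the background and saturation flags throughout and set the spike-in scale. The fit was tested on simulated data. The number of arrays, 6 per form, limits the precision.

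The rule for named probes was the first 2 higher and 2 lower by size of difference, among those with an adjusted p under 0.05, well above background on all 12 arrays and with forms that did not overlap. The arrays, rules and lists were chosen with earlier results of these data known. The comparisons between days and with Cu-NPs EC50 were added after values had been seen. Alternatives were SVCD (written anew in R), quantile and spike-in scaling, normexp, a stricter probe filter, blocks for slide, scan day and replicate number, a fit of the 12 arrays alone, the methods' t-test and leaving out each array.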

Additional observations from a re-analysis of the deposited data

Results flagged for a closer look

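For the 8 probes called at 3 days, the highest and lowest array of each form was compared with the others by Dixon's ratio over the 6 arrays of the form. Of 16 tests, 4 exceeded the 95% critical value, where chance gives about 1 in 20, and 3 of the 4 fell on Cu-NWires EC50 replicate 2. At CUST_49709 that array had a log2 signal of 8.62, with the next nanowire array at 6.69. At 2 further probes higher in Cu-Field it had 9.25 against 7.29 and 6.49 against 4.60. The remaining one was Cu-Field EC20 replicate 1, with 9.23 against 8.91 at one of these probes. Probes of one array are not independent, so the flags on Cu-NWires EC50 replicate 2 count as 1 pattern.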

How the results depend on the processing

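SVCD gave 1370 probes for Cu-Field against Cu-NWires at 3 days, 923 at the EC50, 0 for EC50 against EC20, 6983 for Cu-Field against control, 9705 for Cu-NWires against control, 279 for the forms at 7 days and 2585 for form by day. The spike-in scale gave 952 for the forms at 3 days, 0 at the EC20, 0 for EC50 against EC20 and 14695 for Cu-Field against control. Normexp gave 4 for the forms at 3 days, 0 for EC50 against EC20, 503 and 2569 for Cu-Field and Cu-NWires against control, 1 for the forms at 7 days and 1 for form by day. Probes well above background on all arrays gave 5 for the forms at 3 days, 17 at the EC20, 0 for EC50 against EC20 and 1 for the forms at 7 days. Quantile normalization gave 2 for EC50 against EC20 and 1 for the forms at 7 days. The number of other pairs of forms with fewer probes than Cu-Field and Cu-NWires was 1, and became 0 with quantile normalization, 2 on the spike-in scale and 0 with probes well above background. With slide as a fixed block there were 0 probes for the forms at 3 days, 0 at the EC20, 0 for EC50 against EC20, 17 and 2491 for Cu-Field and Cu-NWires against control and 0 for the forms at 7 days. The cause of these changes was not tested, except that SVCD and the spike-in scale shift all probes of an array together.

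For the forms at 3 days, the 12 arrays alone gave 0 probes, the second scan day alone gave 0, and scan day as a block gave 7. The methods' t-test called 2948 unadjusted and 0 after Benjamini-Hochberg. The first scan day held no level with both forms. Of the alternatives added after the data were seen, leaving out Cu-NWires EC50 replicate 2 gave 5 probes with slide as a fixed block, 50 with slide as a random block and 2211 after SVCD. Leaving out the 4 Cu-Field arrays on one slide gave 0, with differences of 1.78 for CUST_49709, 1.74 for CUST_15345, -0.96 for CUST_9347 and -2.04 for CUST_50327, and 6 with Cu-NWires EC50 replicate 2 left out as well.

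Leaving out each array in turn gave 0 to 142 probes for the forms at 3 days, 0 to 9 at the EC20, 0 to 4 at the EC50, 0 to 2 for EC50 against EC20, 178 to 1281 for Cu-Field and 1490 to 3978 for Cu-NWires against control, 0 to 34 for the forms at 7 days, 0 to 15 for form by day and 28 to 66 for probes detected with one form only. The last of these counts cannot fall when an array is left out. The interaction of form and level stayed at 0. Arrays with the same replicate number did not deviate together (r from -0.541 to 0.391 over 18 pairs), and the replicate block gave 8 probes for the forms at 3 days. The 4 named probes kept their direction in every planned setting, and CUST_49709 passed the threshold in 19 of 23, CUST_15345 in 12 of 22 and CUST_9347 in 17 of 23. Weak signals limit the detection counts, which are read near background.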
